A study of Mus musculus with 8 samples.

Results

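The D cyclins, their kinases CDK4 and CDK6, 4 CDK inhibitors and the retinoblastoma protein form the switch that lets a cell leave G1 and enter S phase. RNA levels of 10 genes of this switch, chosen by symbol out of the 23997 symbols in each library, were compared in cultured neural stem/precursor cells (NS/PCs) of the mouse, which divide in the embryonic brain and yield neurons and later glia. The genes were Ccnd1, Ccnd2, Ccnd3, Cdk4, Cdk6, Cdkn1a, Cdkn1b, Cdkn1c, Cdkn2c and Rb1, and all 10 had a 6-library mean of 1 FPKM or more and so passed the filter on low values. The 3 libraries of Nfia-transduced NS/PCs were set against 3 libraries of control NS/PCs. Nfia codes for a nuclear factor I (NFI) protein, which binds DNA and regulates transcription. Both groups were primary cultures of dissociated telencephalon, the front part of the brain, from E11.5 fetuses of the ICR strain (E11 in the stage label). All cells were grown on coated dishes in N2-supplemented medium with 10 ng/mL basic fibroblast growth factor, itself a mitogen, and poly(A) RNA was sequenced 3 days after transduction. The sources used here give neither the vector, the control construct nor the share of cells transduced. They also do not say whether replicate libraries are separate cultures, so the p-values reflect variation among these libraries that may be technical. The series also holds 1 Flag ChIP and 1 IgG ChIP sample, not analysed here.

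D cyclins are made in response to growth factors and bind CDK4 or CDK6. The active kinase phosphorylates the retinoblastoma protein, the product of Rb1, which then releases E2F transcription factors, and these turn on genes for DNA synthesis. INK4 inhibitors such as p18, the product of Cdkn2c, bind CDK4 and CDK6 directly. CIP/KIP inhibitors, which are p21 (Cdkn1a), p27 (Cdkn1b) and p57 (Cdkn1c), act mainly on the later cyclin E and cyclin A kinases, and p27 and p57 accumulate as neural precursors stop dividing. In the embryonic telencephalon Ccnd1 and Ccnd2 are the D cyclins known from cycling precursors.

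Levels are FPKM, fragments scaled by transcript length and library depth, so genes can be set side by side within a library as far as their gene models hold. Nfia, the check of the labels, had 69.0, 85.6 and 103.5 FPKM in Nfia-transduced cells, against 19.8, 23.9 and 22.2 FPKM in control cells. Of 10 neural precursor markers, all were above the filter. Sox2, 1 of the 3 that did not pass the test given below, averaged 238 ± 8.88 FPKM in Nfia-transduced and 229 ± 8.21 FPKM in control cells (SD, n = 3 per group). Markers of cell types outside the neural lineage were low. Summed microglia markers (7 genes) lay at 1.17 to 1.63 FPKM in the Nfia libraries and at 1.38 to 2.41 FPKM in the control libraries. Summed erythroid markers (6 genes, 1 of them at 0 throughout) lay at 0.335 to 0.749 FPKM with Nfia and 0.537 to 1.36 FPKM in control libraries, and summed endothelial markers (6 genes) at 1.70 to 2.24 FPKM with Nfia and 2.58 to 3.68 FPKM in control libraries. Summed mesenchymal markers (6 genes) were higher, at 4.46 to 16.4 FPKM with Nfia and 5.72 to 14.9 FPKM in control libraries. Depth relative to control 1, read from the steps between low values, ranged from 0.760 in Nfia 3 to 1.11 in Nfia 1. It is an estimate, since only 11.2% (Nfia 1) to 12.9% (Nfia 3) of the low values compared lay close to the ratio used. Absolute depth is unknown.

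With Nfia, Ccnd1 and Ccnd2 were higher and Cdkn1c and Cdkn1b lower, and the other 6 genes did not pass the test. Mean Ccnd1 rose by 84.2% and mean Cdkn1c fell by 47.7%, while Ccnd2 rose by 26.3% and Cdkn1b fell by 9.94%. Log2 differences, taken as Nfia minus control, are of log2(FPKM + 1) values, and adjusted p-values come from limma over all 12537 genes tested, with Benjamini-Hochberg adjustment and a threshold of 0.05. The 2 members called higher stand beside 16.1% of all genes tested and the 2 called lower beside 15.1%, or 31.3% in either direction. In 6 of the 10 the Nfia and control libraries did not overlap, with Nfia above in 4 and below in 2, as in 47.7% of all genes tested (24.7% above and 22.9% below). With so few members these counts do not set the group apart from the other genes. The median log2 difference was 0.14 over the 10 members and 0.01 over all genes tested.

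**Figure D1:**
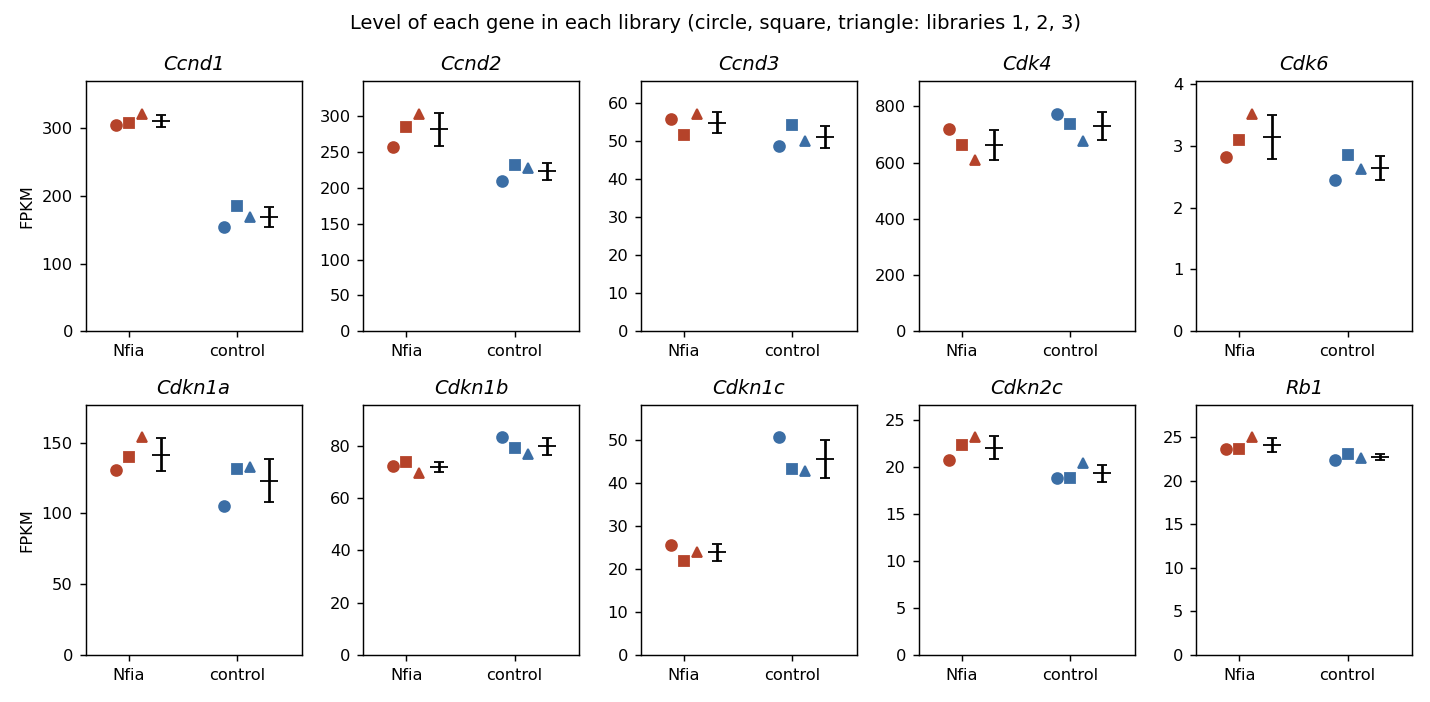
FPKM of each of the 10 genes in the 3 Nfia and 3 control libraries, each panel with its own axis from 0. Points are libraries and bars are the group mean with its SD. The groups lie well apart for Ccnd1 and Cdkn1c, while those of Cdk4, Cdk6, Ccnd3 and Cdkn1a overlap.

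Ccnd1, the cyclin D1 gene, had 305, 308 and 321 FPKM in the Nfia libraries, against 154, 184 and 168 FPKM in the control libraries. The lowest Nfia library stood far above the highest control library. Ccnd1 averaged 311 ± 8.85 FPKM with Nfia and 169 ± 15.1 FPKM in control cells (SD, n = 3 per group), 1.84-fold higher (log2 difference 0.88, SE 0.07, adjusted p = 0.000488). Of the 12537 genes tested, 268, Ccnd1 among them, had a log2 difference at least as high. Its span in GRCm38 is chromosome 7, bases 144929931 to 144939831. Its call held in all 16 alternative analyses, with adjusted p from 2.28e-05 to 0.00516. Among the 10 neural precursor markers, 3 (Nes, Vim and Hes1) were higher and 4 (Pax6, Hes5, Msi1 and Sox1) lower. The call of Vim ended in 5 of the 6 fits that left out 1 library. The 8 oligodendrocyte lineage markers, none of them at 0 in all 6 libraries, summed to 1055 to 1116 FPKM with Nfia and 364 to 411 FPKM in control libraries. Most of that sum was Olig1, with means of 690 FPKM with Nfia and 227 FPKM in control cells, and Olig2, with 373 FPKM and 136 FPKM. Of 7 tested, 2 (Olig1 and Olig2) were higher and 2 (Pdgfra and Mbp) lower, with a median log2 difference of -0.31. The 8 astrocyte markers, none of them at 0 in all 6 libraries, summed to 338 to 351 FPKM with Nfia and 246 to 273 FPKM in control libraries. Of 6 tested, 2 (Slc1a3 and Aldoc) were higher and 2 (Gfap and Aldh1l1) lower, with a median log2 difference of 0.005. Neuron markers were mostly lower, 10 of 12 tested, with 1 higher and a median log2 difference of -0.55. The part of these cell types in the increase of Ccnd1 was not tested.

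Ccnd2, the cyclin D2 gene, had 257, 284 and 304 FPKM in the Nfia libraries, against 210.2, 232 and 227 FPKM in the control libraries. All Nfia libraries were above all control libraries, though by a narrower margin than for Ccnd1. It averaged 282 ± 23.2 FPKM with Nfia and 223 ± 11.52 FPKM in control cells (SD, n = 3 per group), 1.26-fold higher (log2 difference 0.33, SE 0.07, adjusted p = 0.0159). It missed the threshold without Nfia 2 (adjusted p = 0.0631), without control 1 (adjusted p = 0.0576) and with quantile normalization (adjusted p = 0.0807), in a range of 0.00646 to 0.0807 over its 16 alternatives. Ccnd2 lies on chromosome 6 from 127125162 to 127152188.

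Ccnd3, the cyclin D3 gene and the least abundant of the D cyclins, had 55.8, 51.7 and 57.2 FPKM with Nfia, against 48.8, 54.3 and 50.1 FPKM in control libraries. The groups overlapped. Its log2 difference of 0.10 did not pass the test (adjusted p = 0.227), and the 95% interval ran from -0.04 to 0.24, which leaves out an increase of the size seen for Ccnd1. Ccnd3 spans bases 47505051 to 47599689 of chromosome 17.

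The 3 D cyclins together came to 618, 644 and 682 FPKM in the Nfia libraries, against 413, 471 and 446 FPKM in the control libraries. Ccnd1 supplied 49.3%, 47.8% and 47.1% of that sum with Nfia and 37.3%, 39.2% and 37.8% in control cells. The share of Ccnd2 averaged 43.4% ± 1.57 with Nfia and 50.4% ± 0.946 in control cells (SD, n = 3 per group), and that of Ccnd3 lay at 8.03% to 9.02% with Nfia and at 11.2% to 11.8% in control cells. Ccnd1 therefore stood above Ccnd2 in all 3 Nfia libraries, with ratios of 1.18, 1.08 and 1.06, and below it in all 3 control libraries, with ratios of 0.734, 0.794 and 0.740. These shares and ratios are descriptions of genes chosen with their changes known and carry no test.

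**Figure D2:**
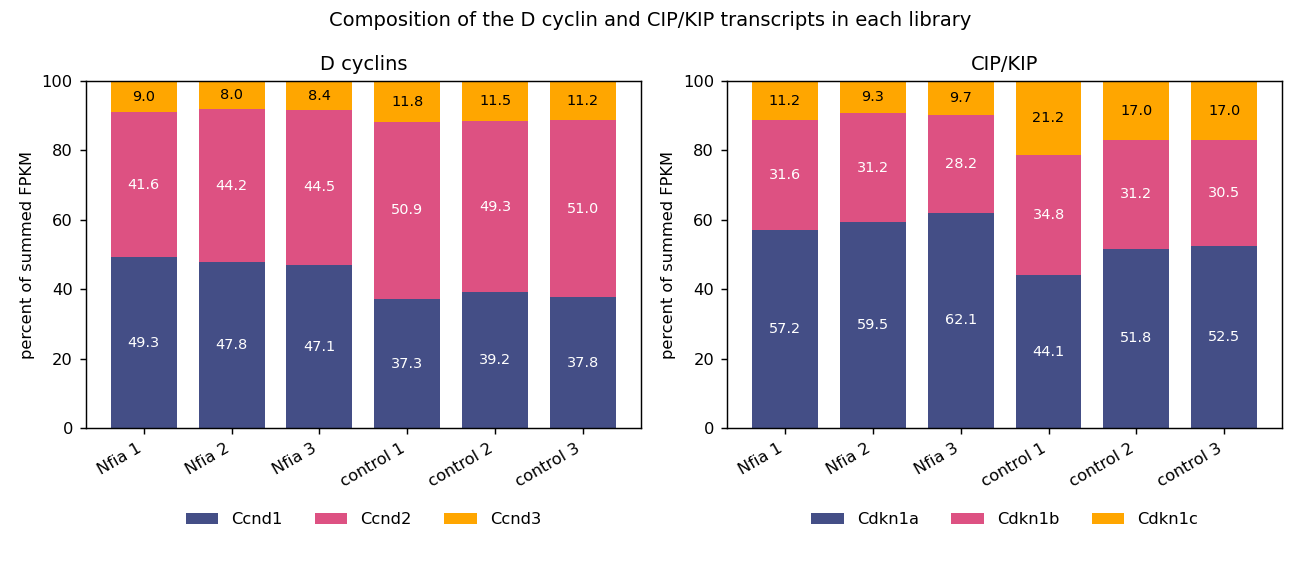
Share of each gene in the summed FPKM of the D cyclins (left) and of the CIP/KIP inhibitors (right), in percent, for each of the 6 libraries. Ccnd1 takes 47.1% to 49.3% of the D cyclin sum in the Nfia libraries and 37.3% to 39.2% in the control libraries, and Cdkn1c takes 9.29% to 11.2% of the CIP/KIP sum in the Nfia libraries and 17.0% to 21.2% in the control libraries.

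The kinase genes did not pass the test. Cdk4, the kinase partner of the D cyclins, was the most abundant of the 10 genes, with 719, 661 and 611 FPKM in the Nfia libraries, against 774, 737 and 676 FPKM in the control libraries. The groups overlapped, with Nfia 1 above control 3. The log2 difference was -0.14 (adjusted p = 0.262), with a 95% interval from -0.34 to 0.07, and it was -0.08 without Nfia 3 (adjusted p = 0.521). In its 16 alternatives Cdk4 did not pass, with adjusted p from 0.0641 with the replicate number as a block to 0.536 without control 1. Among the 12537 genes tested its level ranked 59 in Nfia-transduced and 52 in control cells. It lies on chromosome 10 from 127063535 to 127067288.

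Cdk6, the other D cyclin kinase, was the least abundant of the 10, with 2.82, 3.10 and 3.52 FPKM in the Nfia libraries, against 2.45, 2.84 and 2.63 FPKM in the control libraries. Nfia 1 lay below control 2, so the groups overlapped, and the log2 difference of 0.19 did not pass (adjusted p = 0.177, 95% interval -0.04 to 0.41). Cdk6 made up 0.390%, 0.466% and 0.572% of the summed Cdk4 and Cdk6 level with Nfia and 0.315%, 0.384% and 0.387% in control cells, so nearly all of that RNA was Cdk4 in every library. The ratio of Cdk4 to the D cyclin sum was 1.16, 1.03 and 0.895 in the Nfia libraries, against 1.87, 1.57 and 1.52 in the control libraries. Cdk6 lies on chromosome 5 from 3341004 to 3531008.

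Of the CIP/KIP inhibitors, Cdkn1c changed most. Cdkn1c, an imprinted gene that encodes p57, had 25.7, 21.9 and 24.0 FPKM in the Nfia libraries, against 50.7, 43.3 and 42.8 FPKM in the control libraries. Every Nfia library was far below every control library. It averaged 23.9 ± 1.89 FPKM with Nfia and 45.6 ± 4.38 FPKM in control cells (SD, n = 3 per group; log2 difference -0.91, SE 0.08, adjusted p = 0.000704), and 140 of the 12537 genes, Cdkn1c among them, had a difference at least as low. The call held in all 16 alternatives, with adjusted p from 3.15e-05 to 0.00597. The gene lies on chromosome 7 from 143458339 to 143461059, on the same chromosome as Ccnd1. Neuron markers moved with it. Of 12 tested, none of them at 0 in all 6 libraries, 10 were lower and 1 higher, and their summed level was 1094 to 1113 FPKM with Nfia and 1725 to 1805 FPKM in control libraries. The part of the neuron markers in the decrease of Cdkn1c was not tested, and in bulk RNA fewer cells of a type and less RNA per cell cannot be told apart.

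Cdkn1b, the gene of p27, had 72.3, 73.6 and 69.7 FPKM in the Nfia libraries, against 83.2, 79.3 and 76.9 FPKM in the control libraries. The groups did not overlap, but the gap between them was small. The log2 difference was -0.15 (SE 0.05, adjusted p = 0.0485), just inside the threshold. The call ended without any 1 of the 6 libraries, with adjusted p from 0.0577 without control 3 to 0.117 without control 1. It also ended in 6 of the other 10 alternatives, and the adjusted p ranged from 0.0151 to 0.117 over all 16. Cdkn1b lies on chromosome 6 from 134920401 to 134925525.

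Cdkn1a, the gene of p21 and a p53 target, had 131, 140.1 and 154 FPKM in the Nfia libraries, against 106, 132 and 132 FPKM in the control libraries. Nfia 1 lay below control 2 and control 3, so the groups overlapped. The log2 difference of 0.20 did not pass (adjusted p = 0.182, 95% interval -0.04 to 0.45). It was 0.10 without control 1 (adjusted p = 0.408), and with the replicate number as a block Cdkn1a passed (adjusted p = 0.0452). Cdkn1a lies on chromosome 17 from 29090979 to 29100722.

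The CIP/KIP sum was 229, 236 and 247 FPKM with Nfia, against 239, 254 and 252 FPKM in control libraries, and the groups overlapped. Its make-up differed, since Cdkn1c supplied 11.2%, 9.29% and 9.71% of it with Nfia and 21.2%, 17.0% and 17.0% in control cells. Cdkn1a averaged 59.6% ± 2.49 of the sum with Nfia and 49.5% ± 4.67 in control cells, and Cdkn1b 30.3% ± 1.89 with Nfia and 32.2% ± 2.29 in control cells (SD, n = 3 per group). The D cyclin sum over the CIP/KIP sum was 2.70, 2.73 and 2.76 in the Nfia libraries, against 1.73, 1.85 and 1.77 in the control libraries. The D cyclin sum averaged 648 FPKM with Nfia and 443 FPKM in control cells, and the CIP/KIP sum 237 FPKM with Nfia and 249 FPKM in control cells.

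Because an NFI factor was introduced, the available promoters of the members were searched for NFI sites. The RefSeq promoter set used here (GRCm38.p6) gave 9 starts for 6 of the members, Ccnd3, Cdk4, Cdk6, Cdkn1a, Cdkn1b and Cdkn2c. Ccnd1, Ccnd2, Cdkn1c and Rb1 had no start in it and were not searched. The 250 bases before each start were searched on both strands for the NFI core TTGGC and for the full palindrome. In the palindrome the core is followed by its reverse complement after 5 bases of any kind, so that a palindrome also counts as a core. The 2 windows with a core are printed 5′ to 3′ on the gene's strand, with the cores in capitals. Cdkn1b is the only called member among the 6.
Cdkn1b, chr6:134920151-134920400, plus strand: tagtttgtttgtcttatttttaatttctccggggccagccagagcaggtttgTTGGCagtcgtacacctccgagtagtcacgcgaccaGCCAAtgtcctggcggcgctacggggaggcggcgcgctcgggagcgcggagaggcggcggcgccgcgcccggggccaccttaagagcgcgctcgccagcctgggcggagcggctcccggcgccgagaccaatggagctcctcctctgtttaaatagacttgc
Cdkn1a, downstream start, chr17:29093519-29093768, plus strand: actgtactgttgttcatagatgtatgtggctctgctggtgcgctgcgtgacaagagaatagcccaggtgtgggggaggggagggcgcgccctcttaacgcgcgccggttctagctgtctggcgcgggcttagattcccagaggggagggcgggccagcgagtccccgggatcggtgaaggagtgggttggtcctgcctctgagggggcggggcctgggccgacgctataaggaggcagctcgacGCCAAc
In the Cdkn1b window the cores begin 198 and 162 bases before the start, in opposite orientations and too far apart for the full palindrome. In the Cdkn1a window the core begins 6 bases before the start. A core was present in 41.5% of all 32851 promoters of the table and the full palindrome in 0.0365%, and 0 of the 9 member windows held the palindrome. The E2F sites TTTCCCGC, TTTCGCGC, TTTGCCGC and TTTGGCGC, searched on both strands, were present in 1.86% of all promoters and in 0 of the 9 windows. These are matches of letters, not binding sites.

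Cdkn2c, the gene of the INK4 inhibitor p18, had 20.7, 22.3 and 23.1 FPKM in the Nfia libraries, against 18.8, 18.8 and 20.4 FPKM in the control libraries. The groups did not overlap. The log2 difference of 0.18 fell just outside the threshold (SE 0.06, adjusted p = 0.0502), and Cdkn2c passed in 6 of the 16 alternatives, among them without Nfia 1 (adjusted p = 0.0396), with a range of 0.0316 to 0.139. The gene spans bases 109660876 to 109666756 of chromosome 4. Cdkn1b and Cdkn2c thus stood on either side of the threshold with nearly the same evidence and opposite signs. The other INK4 genes, Cdkn2a, Cdkn2b and Cdkn2d, averaged 4.42 ± 0.413, 5.39 ± 1.39 and 26.9 ± 0.363 FPKM with Nfia and 4.15 ± 0.829, 5.31 ± 0.982 and 29.1 ± 0.582 FPKM in control cells (SD, n = 3 per group). By limma 0 of these 3 passed, with adjusted p from 0.0736 for Cdkn2d to 0.988 for Cdkn2b, and 1, Cdkn2d, was lower at an unadjusted p under 0.05.

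Rb1 had 23.7, 23.7 and 25.0 FPKM in the Nfia libraries, against 22.4, 23.1 and 22.7 FPKM in the control libraries. The Nfia libraries all lay above the control libraries, yet the log2 difference of 0.08 did not pass (adjusted p = 0.171, 95% interval -0.02 to 0.18). Rb1 had the smallest difference in size of the 10 genes. It lies on chromosome 14 from 73192858 to 73325951.

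**Figure D3:**
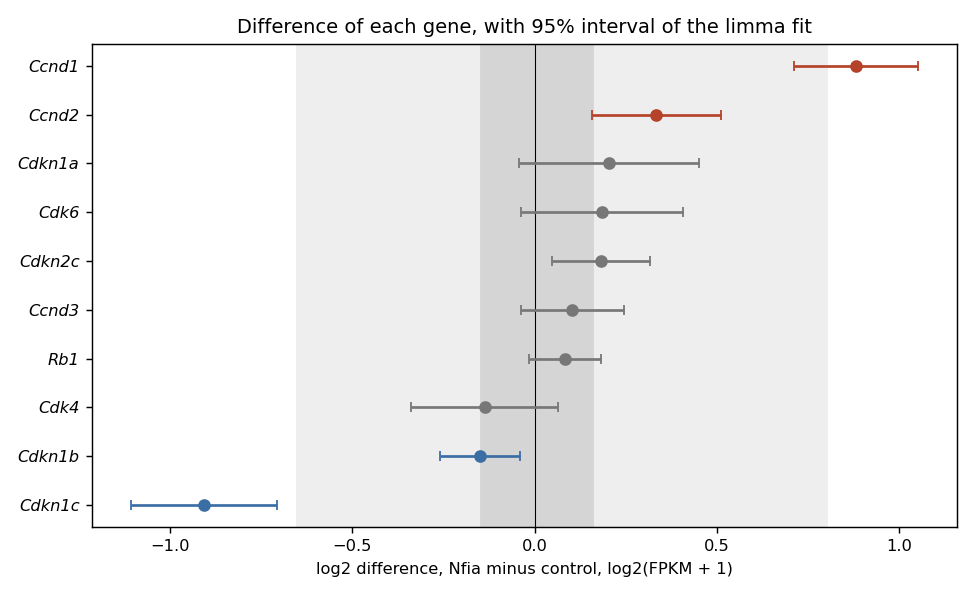
Log2 difference, Nfia minus control, of each gene on the log2(FPKM + 1) scale with the 95% interval of the limma fit, not adjusted for the number of genes. Red marks genes called higher, blue genes called lower and grey genes not called, the dark band holds the middle of all genes tested (25th to 75th percentile) and the light band the 2.5th to 97.5th. Ccnd1 at 0.88 and Cdkn1c at -0.91 are outside the light band, which ends at 0.80 and -0.65.

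In both groups the order of levels was led by Cdk4 and ended with Cdk6. In Nfia-transduced cells it ran Cdk4, Ccnd1, Ccnd2, Cdkn1a, Cdkn1b, Ccnd3, Rb1, Cdkn1c, Cdkn2c and Cdk6. The ranges of Rb1 and Cdkn1c overlapped there, as did those of Cdkn1c and Cdkn2c, and all other neighbours were apart. In control cells it ran Cdk4, Ccnd2, Ccnd1, Cdkn1a, Cdkn1b, Ccnd3, Cdkn1c, Rb1, Cdkn2c and Cdk6, with overlapping ranges for Ccnd3 and Cdkn1c alone. Cdkn1c stood above Rb1 in every control library and below Ccnd3 in 2 of them. With Nfia it stood next to Rb1 and Cdkn2c.

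Among these 10 genes, the highest or lowest level of a group often fell in the same library. How often each library is highest or lowest over all genes tested was not counted. Whether these positions are particular to the members is therefore unknown. Nfia 3, the library with the lowest estimated relative depth and the highest Nfia level, had the highest level of its group for 7 members (Ccnd1, Ccnd2, Ccnd3, Cdk6, Cdkn1a, Cdkn2c and Rb1) and the lowest for Cdk4 and Cdkn1b. Control 1 had the lowest level of its group for the same 7 members and the highest for Cdk4, Cdkn1b and Cdkn1c. The part of depth or Nfia level in these positions was not tested. The spans of 6 members overlap another gene in the RefSeq table, and the sources used here do not say whether counting used strand. Of the overlapping genes, 5 have a value in the files. That of Cdk4, Tspan31, averaged 91.5 ± 1.22 FPKM with Nfia and 84.7 ± 3.92 FPKM in control cells (adjusted p = 0.114), that of Ccnd3, Bysl, 21.1 ± 1.44 FPKM with Nfia and 18.2 ± 1.24 FPKM in control cells (adjusted p = 0.0640), and 1 of Rb1, Lpar6, 16.2 ± 0.693 FPKM with Nfia and 14.8 ± 1.10 FPKM in control cells (adjusted p = 0.163; SD, n = 3 per group, limma). Rb1 also overlaps Mir687, which was listed at 0 in all libraries but control 3, with 47.3 FPKM there. The overlapping gene of Ccnd2, 9330179D12Rik, was below the filter, at 0.543 ± 0.318 FPKM with Nfia and 0.240 ± 0.146 FPKM in control cells (SD, n = 3 per group).

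The counts for the lists that follow are to be read beside all 12537 genes tested, of which 16.1% were higher and 15.1% lower, with a median log2 difference of 0.01. Downstream of the switch, of 12 genes for RB relatives, E2F factors and their DP partners, 4 were higher and 1 lower, with a median log2 difference of 0.17. The repressor E2F gene E2f8 had 15.3, 15.0 and 14.8 FPKM in the Nfia libraries, against 9.73, 10.9 and 10.3 FPKM in the control libraries (log2 difference 0.50, adjusted p = 0.00105). E2f7, of the same repressor type, rose by 0.37 on the log2 scale (adjusted p = 0.00695), and Tfdp1, the main DP partner, by 0.28 (adjusted p = 0.00289). Rbl1, the gene of the RB relative p107, rose by 0.22 (adjusted p = 0.0232) but missed the threshold without each Nfia library, control 1 or control 3 (adjusted p = 0.0594 to 0.0864). Tfdp2, another DP gene, fell by 0.24 (adjusted p = 0.0132) but missed the threshold without Nfia 2 (adjusted p = 0.0568) or control 3 (adjusted p = 0.0512).

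Of 10 later cyclin, CDK and CDC25 genes tested, 7 were higher and 1 lower (median log2 difference 0.23), beside 16.1% higher and 15.1% lower of all genes tested. Ccna2, the cyclin A2 gene, averaged 130.4 ± 2.47 FPKM with Nfia and 106 ± 1.43 FPKM in control cells (SD, n = 3 per group; log2 difference 0.29, adjusted p = 0.00258). The kinase genes Cdk1 (0.32, adjusted p = 0.00412) and Cdk2 (0.28, adjusted p = 0.00596), whose products pair with cyclins A, B and E, also rose. Cdc25b, a phosphatase that activates CDK1, fell to 16.2 ± 0.842 FPKM with Nfia, against 20.6 ± 0.265 FPKM in control cells (log2 difference -0.34, adjusted p = 0.00352).

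Of 16 replication and nucleotide synthesis genes driven by E2F, 9 were higher and 0 lower, and at an unadjusted p under 0.05 the limma counts were 12 and 0. Over all genes tested 16.1% were higher and 15.1% lower. The list's median log2 difference was 0.27. Orc1, of the origin recognition complex, had 7.08, 6.49 and 5.95 FPKM in the Nfia libraries, against 3.76, 3.27 and 3.87 FPKM in the control libraries (log2 difference 0.70, adjusted p = 0.00187). Tk1, thymidine kinase, rose by 0.53 (adjusted p = 0.00407), the licensing factor gene Cdt1 by 0.45 (adjusted p = 0.00682) and Rrm2, a ribonucleotide reductase subunit, by 0.44 (adjusted p = 0.00318). The count of higher genes was 4 without Nfia 1 or Nfia 2 and 5 without control 3.

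Of 10 genes of G2 and mitosis, 6 were higher and 0 lower (8 and 0 at an unadjusted p under 0.05 by limma). The median log2 difference was 0.26, and of all genes tested 16.1% were higher and 15.1% lower. The count of higher genes varied with the library left out. It was 1 without Nfia 2, Nfia 3, control 1 or control 3, 4 without control 2 and 8 without Nfia 1. Birc5, the survivin gene, rose by 0.30 (adjusted p = 0.0115). Bub1b (0.24, adjusted p = 0.0228) and Cdc20 (0.26, adjusted p = 0.0296), of the spindle checkpoint, and the mitotic transcription factor gene Foxm1 (0.27, adjusted p = 0.0319) also rose. The calls of Bub1b, Cdc20 and Foxm1 ended without Nfia 2, Nfia 3, control 1 or control 3, that of Foxm1 also without control 2, with adjusted p from 0.0516 to 0.0977.

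Of 16 genes for CDK activation, CDK4 folding and the turnover of D cyclins and CIP/KIP proteins, 1 was higher and 0 lower, with 3 and 0 at an unadjusted p under 0.05 by limma, and the median log2 difference was 0.04. The shares over all genes tested were 16.1% higher and 15.1% lower. The one called was Cryab, a small heat shock protein gene that averaged 2.48 ± 0.122 FPKM with Nfia and 1.11 ± 0.485 FPKM in control cells (SD, n = 3 per group; log2 difference 0.75, adjusted p = 0.0220). It missed the threshold without Nfia 1 (adjusted p = 0.0517), Nfia 2 (0.0716) or Nfia 3 (0.0625).

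**Figure D4:**
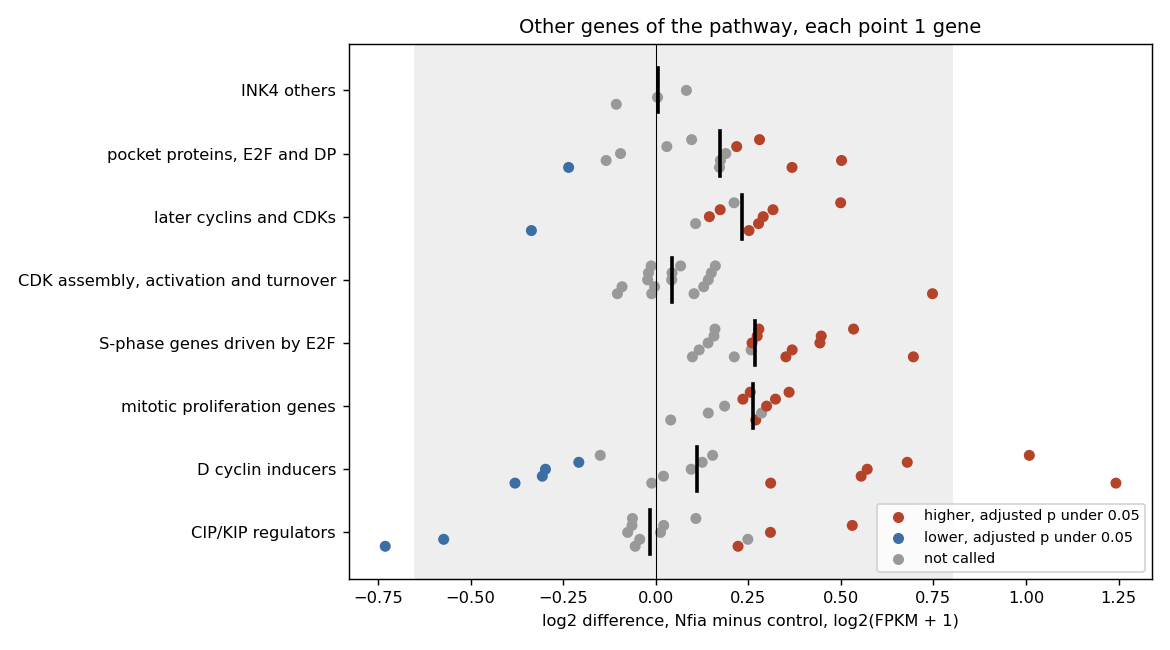
Log2 difference, Nfia minus control, of each tested gene in 8 lists of the pathway. Red points are higher and blue points lower at an adjusted p under 0.05, black bars are list medians and the grey band is the 2.5th to 97.5th percentile of all genes tested. Egfr at 1.24, Notch1 at 1.01 and Neurog2 at -0.73 lie outside the band, and the points of the S-phase and mitotic lists lie inside it, right of 0.

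Upstream, of 16 tested genes known to act on D cyclin transcription, 6 were higher and 4 lower, with a median log2 difference of 0.11. All genes tested also held calls of both signs, 16.1% higher and 15.1% lower. Egfr, the epidermal growth factor receptor gene, had 45.0, 44.3 and 46.7 FPKM in the Nfia libraries, against 17.4, 19.2 and 19.2 FPKM in the control libraries (log2 difference 1.24, adjusted p = 9.12e-05). Notch1 rose by 1.01 (adjusted p = 0.000838), Myc by 0.68 (adjusted p = 0.000575) and Jun, an AP-1 factor, by 0.57 (adjusted p = 0.000972). Ctnnb1, the beta-catenin gene, fell to 386 ± 16.6 FPKM with Nfia, against 477 ± 20.9 FPKM in control cells (log2 difference -0.31, adjusted p = 0.00967). Fos (-0.38), the hedgehog pathway factor Gli3 (-0.30) and the Notch pathway factor Rbpj (-0.21) also fell, with adjusted p = 0.0369, 0.0209 and 0.0271. The calls of Fos, Gli3 and Rbpj each ended without at least 4 of the 6 libraries, Nfia 2, control 2 and control 3 among them for all 3 genes, with adjusted p from 0.0562 to 0.121. The count of lower genes was 1 without Nfia 2, control 2 or control 3 and 2 without Nfia 3 or control 1.

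Of 14 genes known to act on CIP/KIP transcription, 3 were higher and 2 lower (median log2 difference -0.01), near the 16.1% higher and 15.1% lower of all genes tested. Hes1, a Notch effector, rose by 0.53 (adjusted p = 0.00265) and Trp53, the p53 gene, by 0.22 (adjusted p = 0.0337). The proneural gene Neurog2 fell to 3.50 ± 0.484 FPKM with Nfia, against 6.45 ± 0.380 FPKM in control cells (log2 difference -0.73, adjusted p = 0.00234), and Hes5, another Notch effector, fell by 0.57 (adjusted p = 0.0163). Trp53 lost its call without Nfia 1, Nfia 3, control 1 or control 3 (adjusted p = 0.0806 to 0.101), and Hes5 without Nfia 2, control 1 or control 2 (adjusted p = 0.0590 to 0.0650), and the count of lower genes was 1 when Nfia 2, control 1 or control 2 was left out.

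Patterns most like those of Ccnd1 and Cdkn1c were sought over the 6 libraries, as the smallest root mean square distance between log2(FPKM + 1) values after each gene was centred on its own mean. For Ccnd1 the 5 nearest genes were Fam212b (distance 0.0320), Wwc1 (0.0370), the zinc finger gene Sall3 (0.0403), Trim62 (0.0442) and Syde1 (0.0511), against a median of 0.455 over all genes. Fam212b had 60.0, 60.5 and 63.1 FPKM in the Nfia libraries, against 31.6, 35.4 and 32.3 FPKM in the control libraries. For Cdkn1c the 5 nearest were the neurotrophic factor receptor gene Gfra1 (distance 0.0329), the GABA transaminase gene Abat (0.0539), the transcription factor gene Sp9 (0.0580), Tmtc4 (0.0584) and Txnip (0.0594), against a median of 0.477. Abat averaged 19.0 ± 2.06 FPKM with Nfia and 37.5 ± 2.19 FPKM in control cells (SD, n = 3 per group). In both sets the difference between the groups makes up most of the pattern.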

How the data were processed

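FPKM values per gene symbol were deposited, 1 file for each of the 6 RNA-seq libraries; the unit was read from the values and the tools. The submitters' processing notes list, without roles, Cufflinks, Cuffdiff, TopHat, SAMtools, MACS 1.4 and Bowtie 1, and the build mm10. Which annotation, filters and strand setting were used is not given there. An FPKM value is relative to its library, so a rise of abundant transcripts lowers other values.

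The 12537 genes averaging 1 FPKM or more were transformed to log2(FPKM + 1), with no further scaling, and fitted with limma (3.58.1, R 4.3.3; two-sided, with a variance trend and 4 residual degrees of freedom). With 3 libraries per group an exact permutation test reaches 0.1 at best. The fit was tested on simulated data.

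The members, lists, motifs and tests were chosen with earlier results of these data known. Named are the members, up to 4 called genes per list by p, every called gene where 5 or fewer were called in a direction, and the 5 nearest patterns. One gene that the rule names is not reported here. Gene positions and promoters come from RefSeq tables of GRCm38.p6. No read counts were available here, so no counting interval is given. Same-numbered libraries were not treated as pairs. Alternatives were other pseudocounts, filters, scalings and variance models, a replicate block, and leaving out each library.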

Additional observations from a re-analysis of the deposited data

How the results depend on the processing

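The calls of Ccnd1 and Cdkn1c held in all 16 alternatives, and no member changed sign in any of them (15 for Cdk6, which lies below the filter at 5 FPKM). The count of members called higher, 2 as reported, was 1 with quantile normalization and 4 with the replicate number as a block, which added Cdkn1a (adjusted p = 0.0452) and Cdkn2c (adjusted p = 0.0334); it ranged from 1 to 3 when 1 library was left out. The count called lower, 2 as reported, was 1 with no filter, with a filter at 5 FPKM, with 0.1 as pseudocount, with library weights, with a robust trend or no trend of the variance, and without each library in turn, in each case through the loss of Cdkn1b. Over all genes, 2020 were called higher and 1898 lower, and leaving out 1 library gave 1290 to 1625 higher and 1251 to 1572 lower, both lowest without Nfia 2. Among the pathway lists, the mitotic genes called higher were 3 with no filter, in place of 6. The CDK assembly and turnover genes called higher were 0 with the filter at 5 FPKM and 3 with library weights, in place of 1. The other INK4 genes called lower were 1 with quantile normalization, in place of 0, and the CIP/KIP regulators called lower were 1 with the filter at 5 FPKM, in place of 2. At that filter Cryab and Neurog2, with means of 1.79 and 4.97 FPKM over the 6 libraries, were not tested, so these 2 counts fell through the filter alone. The sources used here state no pairing, so the libraries were not treated as pairs. Deviations of same-numbered libraries from their group means correlated at 0.0264, -0.00578 and 0.0461, each under 0.1, and not every library correlated best with its own number. Taken over all genes tested, these correlations do not settle whether libraries were paired. Every mesenchymal marker was lowest of its group in Nfia 1 and in control 1, and whether these libraries share a culture was not tested. The mesenchymal marker Col3a1, chosen after its values were seen, was low in both libraries numbered 1, with 1.19 FPKM in Nfia 1 and 1.32 FPKM in control 1, against 4.71 to 5.54 FPKM in the other 4 libraries. The scalings moved the median of all genes by less than 0.1 on the log2 scale. The absolute depth is unknown, which limits what can be said of Cdk6 at its low level.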
